A study of Sus scrofa with 15 samples.

Results

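The genes described here are the receptors and adaptors by which a cell detects double-stranded RNA and lipopolysaccharide: TLR3, TICAM1, DDX58, IFIH1, DHX58, MAVS, TLR4, LY96, MYD88 and TLR2. They were chosen by name, through the NCBI Gene number of the pig symbol, and make up 10 of the 19197 genes listed in either of the deposited tables. All 10 were found in both tables.

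RNA sequencing of IPEC-J2 cells, a line of pig small-intestinal epithelial cells, gave 15 libraries in 5 groups of 3. Each group carries a lentiviral vector, so no group is free of a lentivirus. The knockdown table holds Lv133KD, labelled as a knockdown of miR-133, Lv143KD, and their control vector Lv3NC. The overexpression table holds OV143, labelled as an overexpression of miR-143, and its control vector Lv20NC. The target of Lv143KD is not settled, because the design text names miR-133 for it while the label carries 143. The labels name no double-stranded RNA, lipopolysaccharide or other treatment apart from the vectors, and give no time point. Whether replicates are separate cultures is not stated, and p-values reflect the variation among these libraries only, which may be technical.

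Toll-like receptor 3 binds double-stranded RNA in endosomes and signals through the adaptor TICAM1, also called TRIF. In the cytoplasm, RIG-I (DDX58) and MDA5 (IFIH1) bind double-stranded RNA and signal through MAVS on mitochondria, and LGP2 (DHX58) modulates both. Lipopolysaccharide is bound at the cell surface by TLR4 with its co-receptor MD-2 (LY96), while TLR2 binds bacterial lipoproteins, and both use the adaptor MYD88, TLR4 also TICAM1. Intestinal epithelial cells are exposed to bacteria and viruses on their luminal side, and many of them are described as holding little TLR4 and TLR2.

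Values are FPKM, fragments per kilobase of transcript scaled to library size. FPKM keeps no read total, so the depth behind a value is unknown. The values of a library summed to 486086 to 520630 FPKM in the knockdown table and to 518578 to 558042 in the overexpression table, except in OV143 replicate 2, at 662022, a library that stood apart from the rest of its table. The TLR3 difference between OV143 and Lv20NC and the correlations of the 5 genes most like TLR3 are given with and without it. Other results in the overexpression table include it unless said otherwise. Markers of epithelial cells were present at a mean of 1 FPKM or more for 8 of 8 listed genes, with KRT8 at 741 ± 129 FPKM (SD, n = 9) in the knockdown table. Of 9 leukocyte markers 2 reached that level there, AIF1 and CD68, while PTPRC, the pan-leukocyte marker, was listed at 0 in all 9 knockdown libraries.

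In the knockdown table the genes fell into 3 levels. LY96, TLR3, MAVS and MYD88 averaged above 10 FPKM, TICAM1, IFIH1, DDX58 and DHX58 averaged between 1.42 and 8.98 FPKM, and TLR2 and TLR4 stayed at or below 0.13 FPKM in every library. The lipopolysaccharide co-receptor LY96 was thus the sensor gene of highest mean level, and its receptor TLR4 the one of lowest. In RNA from whole cultures, a lower level of a gene in fewer cells and in each cell cannot be told apart.

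**Figure D1:**
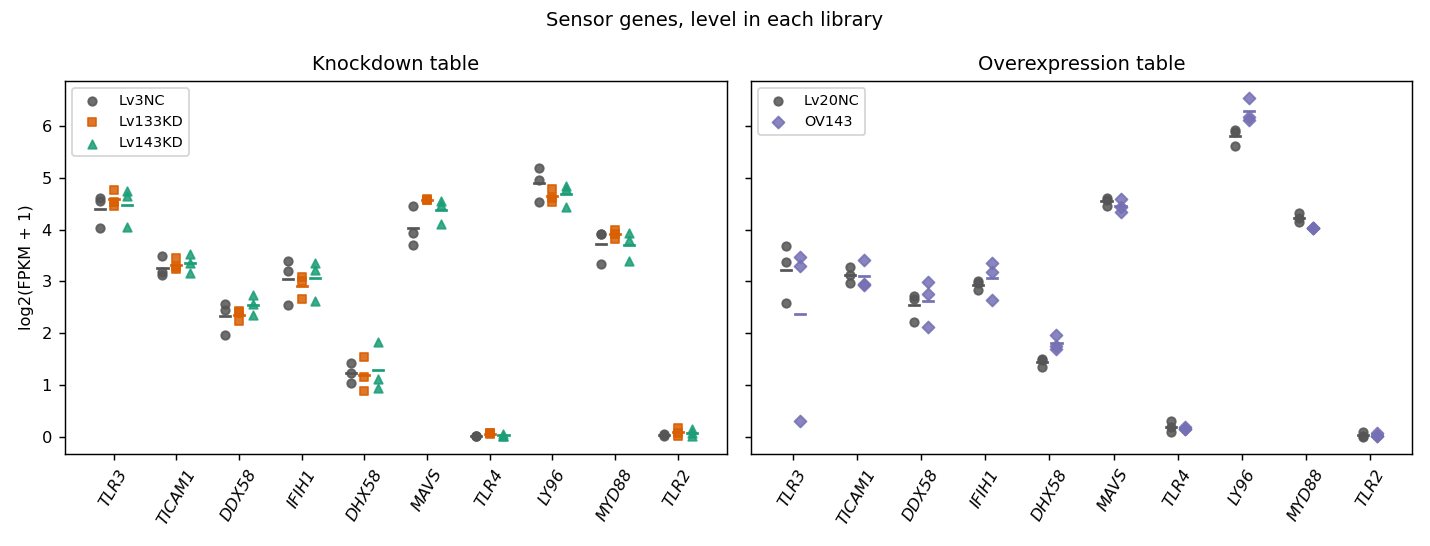
Level of the 10 sensor genes in each of the 15 libraries as log2(FPKM + 1), with 1 panel for each table, 1 point for each library, a short line at the group mean and the vector groups told apart by symbol and colour. In FPKM, TLR4 and TLR2 lie at or below 0.24 FPKM in every library, LY96 lies between 20.77 and 91.95, and a single TLR3 value, 0.24 FPKM in OV143 replicate 2, lies far below the other 14.

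TLR3 (Gene 100037937, chromosome 15, 46966262 to 46977774 in Sscrofa11.1) was read in the Lv3NC libraries 1, 2 and 3 at 22.32, 23.4 and 15.32 FPKM. The Lv133KD libraries had 21.06, 26.18 and 22.24 FPKM, and the Lv143KD libraries had 24.02, 25.7 and 15.47 FPKM. The 3 groups overlapped, and replicate 2 was the highest library of each. In the overexpression table, the Lv20NC libraries had 9.45, 5.0 and 11.8 FPKM and the OV143 libraries had 10.14, 0.24 and 8.88 FPKM. Here replicate 2 was the lowest library of both groups, the opposite of its place in the knockdown table. Whether a replicate number marks the same thing in both tables is not given in the labels. By mean level the groups ran from Lv133KD (23.2 ± 2.68 FPKM, SD, n = 3) through Lv143KD (21.7 ± 5.49), Lv3NC (20.3 ± 4.39) and Lv20NC (8.75 ± 3.45) to OV143 (6.42 ± 5.39). Within each table, neighbours in this order differed by less than their SD.

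TICAM1 (Gene 100623776, chromosome 2, 74004566 to 74021100), the adaptor of TLR3, varied little. Its knockdown-table values ran from 7.67 to 10.52 FPKM, with a mean of 8.98 ± 1.06 (SD, n = 9), and its overexpression-table values from 6.65 to 9.63 FPKM, with a mean of 7.72 ± 1.25 (n = 6). In OV143 replicate 2, the library with the lowest TLR3, TICAM1 was at 9.63 FPKM, the highest value of its table. The receptor and its adaptor therefore did not move together in that library.

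DDX58 (Gene 396723, chromosome 10, 33891720 to 33976151), the receptor RIG-I, had 4.9, 2.9 and 4.47 FPKM in the Lv3NC libraries 1, 2 and 3. It had 4.34, 3.73 and 4.37 FPKM in Lv133KD and 5.72, 4.13 and 4.89 FPKM in Lv143KD. In Lv20NC it had 5.62, 3.68 and 5.37 FPKM, and in OV143 6.9, 3.38 and 5.8 FPKM. Replicate 2 was the lowest library in each of the 5 groups.

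IFIH1 (Gene 100101927, chromosome 15, 68930998 to 68985145), the receptor MDA5, had 9.58, 4.85 and 8.22 FPKM in Lv3NC, 7.51, 5.32 and 7.03 FPKM in Lv133KD, and 9.27, 5.17 and 8.27 FPKM in Lv143KD. Its values were 7.02, 6.12 and 6.79 FPKM in Lv20NC and 8.1, 5.21 and 9.22 FPKM in OV143. As for DDX58, replicate 2 was lowest in all 5 groups, and the 3 knockdown-table values of replicate 2 lay below the other 6.

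DHX58 (Gene 100524520, chromosome 12, 20647698 to 20656691), the modulator LGP2, was the lowest of the 3 RIG-I-like receptors. Its values were 1.68, 1.05 and 1.37 FPKM in Lv3NC, 1.92, 0.86 and 1.22 FPKM in Lv133KD, and 2.56, 0.92 and 1.16 FPKM in Lv143KD. In the overexpression table it had 1.56, 1.8 and 1.83 FPKM in Lv20NC and 2.4, 2.91 and 2.26 FPKM in OV143. The knockdown groups overlapped, while all 3 OV143 libraries lay above all 3 Lv20NC libraries.

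MAVS (Gene 100037290, chromosome 17, 31850646 to 31869273), the mitochondrial adaptor of DDX58 and IFIH1, had 14.3, 20.98 and 12.01 FPKM in Lv3NC. Its values in Lv133KD, 22.87, 23.04 and 22.72 FPKM, all lay above these and above the 22.35, 21.37 and 16.25 FPKM of Lv143KD. The SD of the 3 Lv133KD libraries was 0.160 FPKM, against 4.66 FPKM in the 3 of Lv3NC. In the overexpression table MAVS ran from 19.37 to 23.43 FPKM, and the groups overlapped.

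TLR4 (Gene 399541, chromosome 1, 258044610 to 258054641) was at 0.02 to 0.05 FPKM in the 9 knockdown-table libraries and at 0.07 to 0.24 FPKM in the 6 of the overexpression table. TLR2 (Gene 396623, chromosome 8, 75416257 to 75428370) was at 0.02 to 0.13 and 0 to 0.07 FPKM. Both fell under the filter on low values, which asked for 1 FPKM or more in 3 or more libraries, and neither was tested under it. With values deposited to 2 decimals, an FPKM of 0.02 is 2 units of the last digit, so no fold change is given for these 2 genes.

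LY96 (Gene 100125555, chromosome 4, 61919806 to 61950712), the lipopolysaccharide-binding partner of TLR4, had 22.14, 30.06 and 35.61 FPKM in Lv3NC, 22.11, 26.61 and 23.28 FPKM in Lv133KD, and 20.77, 27.53 and 26.54 FPKM in Lv143KD. In the overexpression table it had 48.13, 57.81 and 59.38 FPKM in Lv20NC and 68.58, 91.95 and 71.36 FPKM in OV143. All 3 OV143 libraries lay above all 3 Lv20NC libraries, and replicate 1 was the lowest library of each of the 5 groups.

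MYD88 (Gene 396646, chromosome 13, 22976951 to 22979568), the adaptor shared by TLR4 and TLR2, had 14.08, 14.13 and 9.13 FPKM in Lv3NC, 14.93, 14 and 13.14 FPKM in Lv133KD, and 14.36, 12.89 and 9.54 FPKM in Lv143KD. It had 17.66, 18.95 and 16.62 FPKM in Lv20NC, above the 15.34, 15.25 and 15.41 FPKM of OV143. Replicate 3 was the lowest library of each knockdown-table group, as it was for TICAM1 and MAVS.

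Vector comparisons were made with limma on log2(FPKM + 1) over all genes that passed the filter, 11645 in the knockdown table and 11506 in the overexpression table, with 8 sensor genes among them in each. On this scale a fold change understates the change of a low gene. A gene was called at a Benjamini-Hochberg adjusted p under 0.05 over all genes tested. The same comparisons were made with the replicate number of the labels as a block, since libraries of 1 number deviated from their groups together. SEs and intervals are those of the fit without the block unless the block is named. Lv133KD and Lv143KD share their control libraries, so their comparisons with Lv3NC are not independent.

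No sensor gene was called between Lv133KD and Lv3NC, where 0.0172% of all genes were called without the block and 0.258% with it. At an unadjusted p under 0.05, 1 sensor gene passed without the block (MAVS, beside 3.26% of all genes) and 2 with it (MAVS and LY96, beside 16.5%). Its log2 fold change was 0.55 (SE 0.19, 95% confidence interval 0.12 to 0.97), with a limma adjusted p of 0.926, or 0.171 with the block. Groups that do not overlap in this direction were found for 4.69% of all genes. TLR3 differed by 0.20 (SE 0.21, interval -0.28 to 0.67), so that neither a small decrease nor an increase of up to 0.67 lies outside its interval. LY96 differed by -0.25 (SE 0.18), with a limma adjusted p of 0.926, or 0.284 with the block. The median of the 8 tested sensor genes was 0.05, beside 0.01 over all genes, and 5 of the 8 were higher in Lv133KD.

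Between Lv143KD and Lv3NC no sensor gene was called either, with 0.0172% of all genes called without the block and 0.172% with it. At an unadjusted p under 0.05 none passed without the block (beside 1.79% of all genes) and 2 with it (MAVS and DDX58, beside 5.74%). MAVS differed by 0.35 (SE 0.19, interval -0.08 to 0.77) and DDX58 by 0.23 (SE 0.17, interval -0.16 to 0.62). With the block the intervals were 0.045 to 0.65 for MAVS and 0.0026 to 0.46 for DDX58. TLR3 differed by 0.08 (interval -0.40 to 0.56). All 8 sensor genes overlapped between these groups, while 4.14% of all genes did not.

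Lv133KD and Lv143KD, compared directly, differed in no called gene with or without the block, sensor genes included (limma, 0% called). At an unadjusted p under 0.05 none of the sensor genes passed, beside 0.129% of all genes, 15, without the block and 1.79%, 209, with it. MAVS was higher in all 3 Lv133KD libraries, by 0.20 on the log2 scale (SE 0.19, interval -0.23 to 0.63), where 2.11% of all genes show groups apart in this direction. TLR3 differed by 0.11 (interval -0.36 to 0.59).

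Between OV143 and Lv20NC no sensor gene was called. Without the block no gene was called at all (limma, 0%), though 11.3% of all genes, 1304, passed an unadjusted p of 0.05. Adding the block called 1.94% of all genes. At an unadjusted p under 0.05, 2 sensor genes passed without the block (LY96 and DHX58, beside the 11.3%) and 3 with it (TLR3 too, beside 19.9%). LY96 was higher by 0.47 (SE 0.14, interval 0.14 to 0.81), with a limma adjusted p of 0.283, or 0.0569 with the block. DHX58 was higher by 0.37 (SE 0.11, interval 0.11 to 0.62), with a limma adjusted p of 0.279, or 0.115 with the block. MYD88 was lower by 0.20 (interval -0.41 to 0.02), with a limma adjusted p of 0.476, or 0.311 with the block. The groups did not overlap for these 3 of 8 genes, beside 21.9% of all genes tested.

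The call on LY96 and DHX58 depended on how libraries were weighted. Library weights, an alternative chosen after seeing the data, give less weight to libraries that vary more. With them limma called 2283 of the 11506 genes tested. Among these were LY96 (log2 fold change 0.44, limma adjusted p 0.00348), DHX58 (0.33, adjusted p 0.0140) and IFIH1 (0.31, adjusted p 0.0274). TLR3 differed between OV143 and Lv20NC by -0.85 (SE 0.80, interval -2.72 to 1.02), with a limma adjusted p of 0.712, or 0.206 with the block. With the block its interval was -1.61 to -0.092. Without OV143 replicate 2 the difference had the other sign, 0.17, with a limma adjusted p of 0.708. That fit kept Lv20NC replicate 2, at 5.0 FPKM the lowest library of its group. With replicate 2 left out of both groups, Lv20NC had 9.45 and 11.8 FPKM and OV143 had 10.14 and 8.88 FPKM. The sign on the log2 scale was then that of the main fit.

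**Figure D2:**
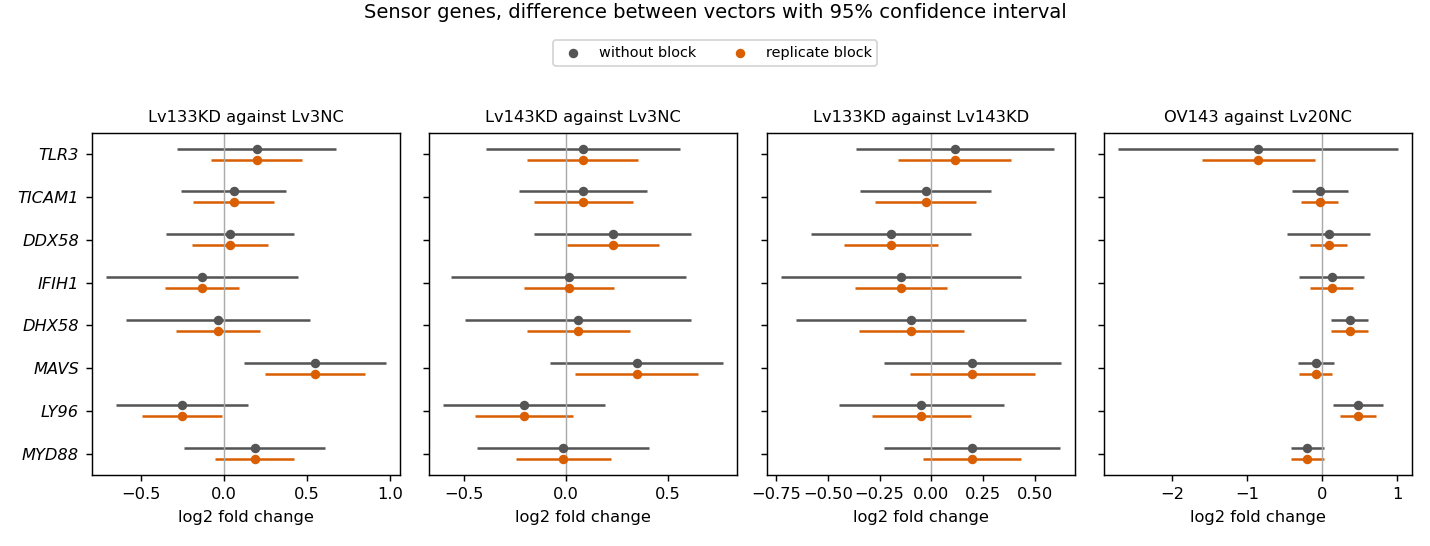
Log2 fold change on the log2(FPKM + 1) scale with its 95% confidence interval for the 8 tested sensor genes in the 4 vector comparisons, without the replicate block (grey) and with it (orange); the horizontal axes differ between panels. Most intervals include 0, the block shortens most of them, and the TLR3 interval in OV143 against Lv20NC, -2.72 to 1.02, is the widest of those drawn.

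The replicate number went with larger differences than the vector for most sensor genes in the knockdown table. In a moderated F test of the 3 numbers, adjusted for vector, 6 of 8 sensor genes were called, beside 36.6% of all genes tested. They were IFIH1 (limma adjusted p 0.00361), DHX58 (0.00740), MYD88 (0.0226), TLR3 (0.0261), DDX58 (0.0326) and LY96 (0.0363). MAVS (0.101) and TICAM1 (0.193) were not called. What a number marks is not given in the labels, and its part in the vector comparisons was not tested beyond the block. IFIH1 and DHX58 were called in each of the 9 fits that left out 1 library. The count of called sensor genes was between 2 and 7 in those fits, in which 1438 to 6900 of all genes were called: it was 2 when the library left out was the first of Lv3NC or the second or the third of Lv143KD, and 3 when it was the second or the third of Lv3NC or the first of Lv143KD. With no filter on low values it was 2, among 3018 of all genes.

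IFIH1 averaged 8.79 ± 1.12 FPKM in the 3 knockdown-table libraries numbered 1, 5.11 ± 0.240 in those numbered 2 and 7.84 ± 0.702 in those numbered 3 (SD, n = 3). DHX58 averaged 2.05 ± 0.455, 0.943 ± 0.0971 and 1.25 ± 0.108 FPKM in the same order. For TLR3 the order was another, with 22.5 ± 1.49, 25.1 ± 1.49 and 17.7 ± 3.95 FPKM. The cytoplasmic receptors were thus lowest in the libraries numbered 2, in which TLR3 was highest. Of all genes tested, 25.2% had replicate 2 as the lowest library of every knockdown-table group, as DDX58, IFIH1 and DHX58 did, and 17.4% had it as the highest, as TLR3 did. Replicate 3 was lowest in every group for 17.1% of genes, among them TICAM1, MAVS and MYD88, and replicate 1 for 3.25%, among them LY96. Replicate 1 was the highest in every group for 8.09%, among them IFIH1 and DHX58.

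The replicate number accounted for 89.1% of the sum of squares of IFIH1 over the 9 knockdown-table libraries, for 85.6% of that of DHX58 and for 66.5% of that of TLR3, on the log2(FPKM + 1) scale. The vector accounted for 4.73%, 1.93% and 9.69%. The medians over all genes tested were 58.0% for the number and 13.1% for the vector. MAVS was the exception among the sensor genes, with 52.6% by vector and 25.7% by number.

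**Figure D3:**
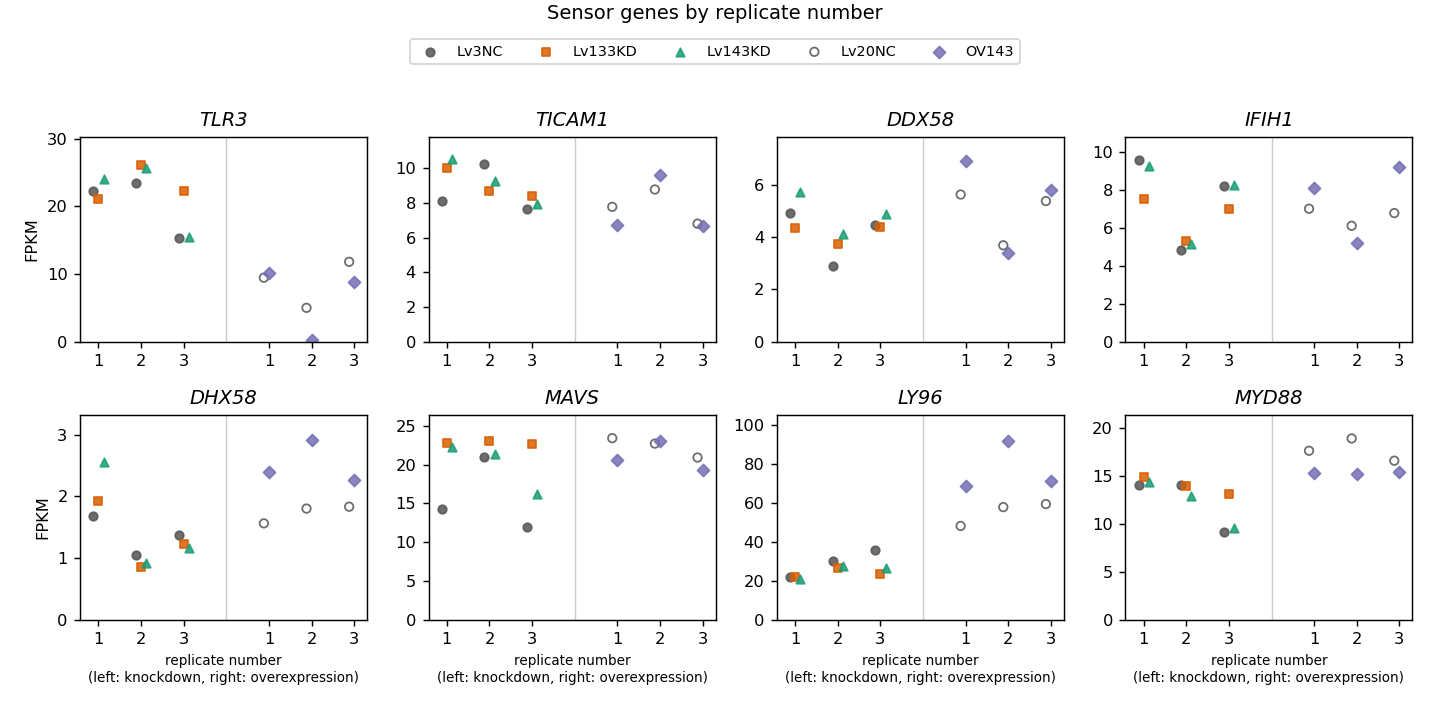
FPKM of the 8 tested sensor genes by replicate number in each vector group, with 1 panel for each gene and 1 point for each library, the knockdown table on the left and the overexpression table on the right of each panel; the vertical axes start at 0 and differ between panels. IFIH1 and DDX58 dip at replicate 2 in all 5 groups, while TLR3 is highest there in the knockdown-table groups and is lowest there in Lv20NC and OV143.

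In the overexpression table no sensor gene was called in the same F test, beside 0.0521% of all genes (limma, 6 genes). At an unadjusted p under 0.05, 4 of 8 sensor genes passed, TLR3, DDX58, TICAM1 and IFIH1, beside 26.2% of all genes. Their limma adjusted p was 0.114 for TLR3 and for DDX58, 0.165 for TICAM1 and 0.186 for IFIH1. Fits that left out a library did call sensor genes, on a spread pooled over genes, as given at the end. Replicate 2 was the lowest library of both groups for TLR3, DDX58 and IFIH1, as for 27.9% of all genes, and the highest for TICAM1, as for 32.5%. Replicate 1 was lowest in both groups for LY96, as for 8.59%, and replicate 3 for TICAM1 and MAVS, as for 15.7%. By share of the sum of squares, the vector led for DHX58 (79.9%), MYD88 (78.2%) and LY96 (68.5%). The number led for the other 5: DDX58 (92.5%), TICAM1 (87.4%), TLR3 (67.0%), IFIH1 (65.0%) and MAVS (60.8%). The medians over all genes tested were 18.9% for the vector and 53.1% for the number. These shares are not adjusted for degrees of freedom, and this table has fewer vectors than numbers, which favours the number.

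The lowest TLR3 value of the series stood in OV143 replicate 2, at 0.24 FPKM against 9.05 ± 2.52 FPKM (SD, n = 5) in the other libraries of its table. On the log2(FPKM + 1) scale this is a difference of -2.98, the lowest of all 11506 genes tested, before USP53 at -2.51. Among the 8159 genes with at least 5 FPKM in each of the other 5 libraries, the lowest of those 5 was 20.8-fold above OV143 replicate 2 for TLR3 and 5.13-fold above it for USP53, the next gene. That minimum equals the lowest of the 5 TLR3 values, and it leaves out CTDSP2, which was listed at 0 in OV143 replicate 2 and at 1.46 to 5.79 FPKM in the other 5. The differences of all genes tested had a median of 0.02 and an SD of 0.44. TLR3 was in other respects 1 of many genes apart in this library, which lay below all 5 others for 37.5% of genes and above them for 38.4%. DDX58, IFIH1 and MYD88 also lay below all 5, TICAM1, DHX58 and LY96 above, and MAVS within. This description singles out 1 library after its values were seen, and has no test.

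**Figure D4:**
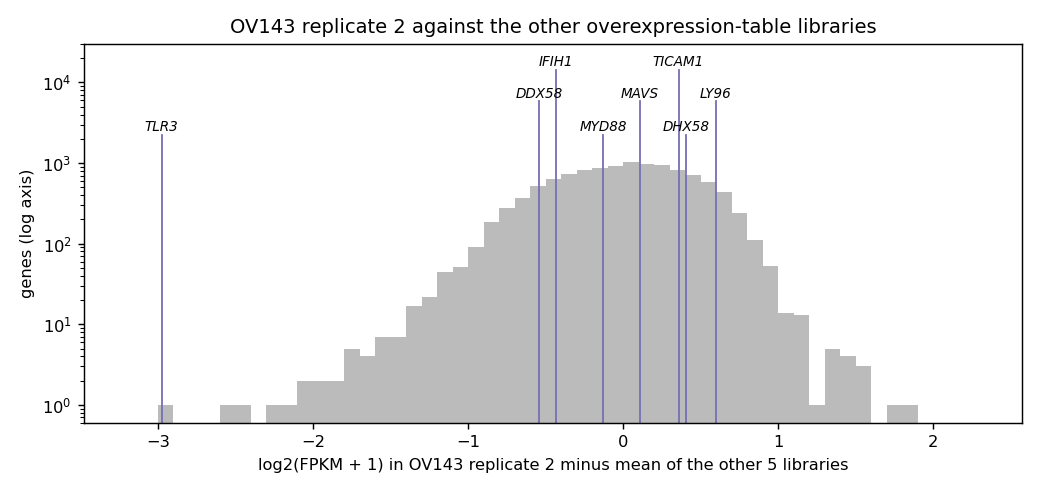
Histogram of the log2(FPKM + 1) of OV143 replicate 2 minus the mean of the other 5 overexpression-table libraries over the 11506 genes tested, with the number of genes on a log axis and the 8 tested sensor genes marked. TLR3, at -2.98, is at the left end, and the other sensor genes lie between -0.54 and 0.60.

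The neighbours of TLR3 on chromosome 15 were looked at after these values were seen. SORBS2 had 61.41, 47.74 and 67.93 FPKM in Lv20NC and 64.83, 38.03 and 66.05 FPKM in OV143, so that OV143 replicate 2 was lowest there too. CYP4V2 had 0.67 FPKM in OV143 replicate 2 and 1.29 to 1.47 FPKM in the other 5. FAM149A had 36.56 FPKM there, above its 31.58 to 34.28 FPKM in the other libraries, and UFSP2 had 37.35 FPKM, within its range of 34.67 to 37.89 FPKM. ANKRD37 had 25.99 FPKM in OV143 replicate 2 and 7.35 to 14.19 FPKM in the other 5. C15H4orf47 had 14.56 FPKM there and 11.33 to 13.66 FPKM in the other 5. Low values in that library were thus not shared by all neighbours of TLR3. Of all genes tested, 37.5% lay below the other 5 libraries there and 38.4% above. Neighbours under the filter on low values are left out.

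The 5 genes whose pattern over libraries was most like that of TLR3, by the smaller of the Pearson correlations in the 2 tables on the log2(FPKM + 1) scale, were PPP4R3B, DHX9, RBL1, RAD50 and NCL. In the knockdown table r was 0.97 to 0.98 (n = 9) and Spearman's rho 0.88 to 0.97. In the overexpression table r was 0.98 to 0.99 (n = 6) and rho 0.71 to 0.94, lowest for DHX9. Without the 2 knockdown-table libraries farthest from the median of TLR3, replicate 3 of Lv3NC and of Lv143KD, r was 0.81 to 0.93 (n = 7). Without OV143 replicate 2 the overexpression-table r was 0.87 to 0.99 (n = 5). These correlations have no p, since the genes were chosen for them among 11142, of which 152 had an r above 0.9 in both tables. DHX9, an RNA helicase that also binds double-stranded RNA, had 65.87 to 132.4 FPKM in the knockdown table, lowest in replicate 3 of Lv3NC and of Lv143KD, and in OV143 replicate 2 it had 54.09 FPKM against 73.15 to 95.43 in the other 5. Among the sensor genes MYD88 had the highest r with TLR3 in the knockdown table (0.87, n = 9), but a rho of 0.33, below the 0.60 of TICAM1 and the 0.52 of MAVS. In the overexpression table its r was 0.23 (n = 6). The sign of r differed between the tables for 4 of the 7 others: TICAM1 (0.60 and -0.86), MAVS (0.74 and -0.51), IFIH1 (-0.50 and 0.76) and DDX58 (-0.28 and 0.82). In the overexpression table, where these r values include OV143 replicate 2, their rho was -0.60, -0.31, 0.49 and 0.60 in the same order.

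The tables were normalised separately, so levels set across them are a description. TLR3 was lower in all 6 overexpression-table libraries than in all 9 of the knockdown table, as were 5.25% of the 11142 genes tested in both. Between the control vectors the difference of Lv20NC from Lv3NC was -1.13 on the log2 scale, and 0.808% of genes had a lower one, beside a median of 0.05. LY96, at 0.89, and MYD88, at 0.48, were higher in all libraries of the overexpression table, as were 12% of genes. The deposited table and the control vector cannot be told apart here.

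Other genes of these pathways were taken from lists of textbook members. The remaining toll-like receptors, TLR1 and TLR5 to TLR10, summed to 1.03 to 1.55 FPKM in a knockdown-table library, where TLR1, the highest, averaged 0.758 FPKM. TLR1 in the overexpression table was at 1.16 to 2.33 FPKM and was tested, with a log2 fold change of 0.42 for OV143 and a limma adjusted p of 0.283, or 0.0978 with the block. The other 6 stayed at or below 0.44 FPKM there. TLR3 alone exceeded the sum of these 7 in every knockdown-table library. CD14, which passes lipopolysaccharide to TLR4 and LY96, was at 0.61 to 2.29 FPKM there. HSP90B1, a chaperone of several but not all toll-like receptors, averaged 263 ± 43.5 FPKM (SD, n = 9), and UNC93B1, which carries TLR3 to endosomes, 28.4 FPKM. No member of the 7 lists was called in a comparison of the knockdown vectors, with or without the block.

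Between OV143 and Lv20NC with the block, 5 of 12 tested genes of the list of outputs of TLR3 and RIG-I-like signalling were called higher and none lower, beside 0.643% of all genes called higher. The median of the list was 0.52 and 11 of 12 were higher, beside a median of -0.02 over all genes. ISG15, a ubiquitin-like interferon-stimulated protein, had 31.1, 39.02 and 33.94 FPKM in Lv20NC and 94.77, 189.04 and 93.17 FPKM in OV143, a log2 fold change of 1.75 with a limma adjusted p of 0.00209. The chemokine CCL5 rose by 1.24 (limma adjusted p 0.00209), and IFIT3, IFIT1 and MX1 by 1.17, 0.74 and 0.52. TNFAIP3, the deubiquitinase A20 that restrains this signalling, fell by 0.97 (limma adjusted p 0.0205), and the kinase IRAK2 fell by 0.71 (0.0427). None of these was called without the block, where the smallest limma adjusted p was that of IFIT3, 0.0590. The fold changes include OV143 replicate 2, the highest OV143 library for ISG15, CCL5, IFIT3 and MX1. It was the lowest for TNFAIP3, IRAK2 and IFIT1. CCL5 had 143.04 FPKM there, 93.72 and 82.62 in the other OV143 libraries and 37.84 to 50.13 in Lv20NC. TNFAIP3 had 15.99 FPKM there, 36.11 and 27.26 in the other OV143 libraries and 45.24 to 57.54 in Lv20NC. The sensors that act before these outputs were not called in either fit, and the interferon genes IFNB1, IFNL1 and IFNL3 were at or below 0.54 FPKM in all libraries in which they are listed.

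By replicate number in the knockdown table, 9 of 11 tested outputs, 9 of 14 other double-stranded RNA sensors and effectors, 7 of 13 toll-like receptor adaptors and kinases, 7 of 21 cofactors of RIG-I-like receptors and MAVS, 6 of 14 negative regulators and 2 of 4 co-receptor and trafficking genes were called, beside the 36.6% of all genes given above. OAS1, an enzyme that makes a second messenger on binding double-stranded RNA, had 16.34, 8.8 and 9.47 FPKM in Lv3NC, 17.63, 9.6 and 10.88 in Lv133KD and 21.59, 9.8 and 9.22 in Lv143KD (limma adjusted p 0.000970). Replicate 1 was thus its highest library in each group, as for IFIH1 and DHX58.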

How the data were processed

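Per the file headers, the authors deposited FPKM per gene, given to 2 decimals, as a knockdown table of 9 libraries and an overexpression table of 6. The submitters' processing notes name the build Sscrofa11.1. For the aligner, counting tool, annotation and strand use, the sources used here give nothing. Symbols and 1-based coordinates came from a RefSeq gene table of that build, which gave a symbol for 18618 of 19000 and 16949 of 17001 genes. Every column of per-sample values had a sample, and no 2 libraries held identical values.

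A gene entered the tests of a table if 3 or more of its libraries had 1 FPKM or more. Values were taken as log2(FPKM + 1). With limma 3.58.1 (R 4.3.3), all such genes and libraries of a table were fitted together (trended empirical Bayes, two-sided, Benjamini-Hochberg adjustment over all genes tested, called under 0.05). A moderated F test compared the replicate numbers, adjusted for vector. The fit was tested on simulated data. For the vector comparisons these held no differences by replicate number, so they do not show how the fit without the block deals with such differences. Other pseudocounts, filters, scalings, variance models, left-out libraries and the block were tried.

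The numbers 1 to 3 come from the sample titles. Same-numbered libraries deviated from their group means together, with correlations of at least 0.27 over 9 pairs in the knockdown table. In the overexpression table these were at least 0.23 over 3 pairs. All were over the limit of 0.1, so the replicate number was added as a block in an alternative fit of the vector comparisons. The main fit of these had no block and treated libraries as unpaired. Libraries of different numbers reached 0.38 and 0.54.

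The sensor genes, the pathway and marker lists and the tests were chosen with earlier results of these data known. The text names all 10 sensor genes, the 5 genes most like TLR3, and from a pathway list up to 4 called members with the smallest p and the 2 of highest mean level; MX1, CD14, the interferons and the neighbours of TLR3 were named outside this rule, after their values were seen.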

Additional observations from a re-analysis of the deposited data

How the results depend on the processing

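Of 569 alternative values of the 32 sensor-gene fold changes, 503 kept their direction and their side of the threshold, 8 passed the threshold and 58 had the other sign, 34 of these with 1 library left out. The cause was not tested. FPKM without a read total leaves counting error unknown, and TLR4 and TLR2 entered a test only without the filter, where neither was called by replicate number in either table (smallest limma adjusted p 0.0934, for TLR2 in the knockdown table). No sensor gene was called between knockdown vectors under any alternative.

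The replicate block raised the genes called in the whole table from 2 to 30 for Lv133KD against Lv3NC, from 2 to 20 for Lv143KD against Lv3NC and from 0 to 223 for OV143 against Lv20NC, and to 257 there with quantile normalisation too. The block changed no call of a sensor gene. Without replicate number 1, 2 or 3 of every group, the block gave 0, 14 and 72 genes for Lv133KD, 1, 3 and 60 for Lv143KD and 683, 1454 and 278 for OV143, with 2, 2 and 1 sensor genes called for OV143 from 4 libraries and 1 residual degree of freedom. With no filter on low values Lv133KD and Lv143KD had 1 gene each, the replicate numbers called 2 sensor genes in the knockdown table and 0 genes in the overexpression table, where a pseudocount of 0.1 FPKM gave 2. Scaling to the same median gave 0, 1 and 2 genes for Lv133KD, Lv143KD and OV143, and quantile normalisation 6 for OV143. Without the variance trend, or with the 2 groups alone, both knockdown vectors had 0 genes. Library weights gave 21, 6 and 2283 genes, with 3 sensor genes for OV143.

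Signs turned as follows on the log2 scale. For Lv133KD against Lv3NC, DDX58 was -0.0038 with median scaling, -0.0077 with quantile normalisation, -0.0058 with library weights and -0.085 with the block without number 2. DHX58 was 0.011 with weights and 0.015 with the block without number 2, and TICAM1 was -0.050 with the block without number 1. For Lv143KD against Lv3NC, MYD88 was 0.0030 with weights and 0.042 with the block without number 2, IFIH1 was -0.018 without number 2, and TICAM1 was -0.042 and DHX58 -0.11 without number 1. For Lv133KD against Lv143KD, TLR3 was -0.067 and LY96 0.021 with weights, -0.078 and 0.019 with the block without number 3, and TICAM1 was 0.0030 without number 2. For OV143 against Lv20NC, TICAM1 was 0.026 with median scaling, 0.019 with quantile normalisation, 0.019 with the block added, and 0.047 with the block without number 1. DDX58 was -0.00067 there, IFIH1 was -0.0075 with the block without number 3, and TLR3 was 0.038 with weights.

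Leaving out 1 library gave 0 genes for both knockdown vectors against Lv3NC and 0 to 511 for OV143. The replicate numbers then called 2 to 7 sensor genes and 1438 to 6900 genes in the knockdown table, and 1 to 5 and 140 to 6274 in the overexpression table, where each such fit leaves 1 residual degree of freedom, so that its calls rest on a spread pooled over genes. For Lv133KD against Lv3NC the ranges were -0.39 to 0.042 for IFIH1, -0.21 to 0.11 for DHX58, -0.14 to 0.15 for DDX58, -0.018 to 0.17 for TICAM1 and -0.0095 to 0.28 for MYD88. For Lv143KD they were -0.21 to 0.14 for MYD88, -0.24 to 0.23 for IFIH1, -0.21 to 0.24 for DHX58, -0.10 to 0.30 for TLR3 and -0.0042 to 0.20 for TICAM1. For Lv133KD against Lv143KD they were -0.17 to 0.026 for LY96, -0.27 to 0.17 for DHX58, -0.12 to 0.060 for TICAM1 and -0.10 to 0.25 for TLR3. For OV143 they were -0.19 to 0.049 for TICAM1, -0.093 to 0.33 for DDX58, -1.41 to 0.17 for TLR3 and -0.022 to 0.34 for IFIH1.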
